A study of Mus musculus with 5 samples.

Results

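Dissociated whole cells were compared with nuclei isolated from frozen tissue, both taken from the dentate gyrus of wild-type (WT) mice 14 days after contextual fear conditioning (CFC), a task in which mice learn that a chamber goes with foot shock. The cell library, CFC-14d, was made from minced tissue digested with collagenase and DNase I in the warm and treated with a solution that lyses red blood cells. The nuclei library, WT-CFC, was made from homogenized frozen tissue cleaned on a density gradient. The members were the barcodes with at least 500 UMIs in these libraries, which were 32827 of CFC-14d and 13213 of WT-CFC, together 46040 of the 95918 barcodes in 5 libraries. The other libraries are given as values beside them: Random-14d holds dissociated cells of WT mice 14 days after random foot shocks, WT-naive holds nuclei of untreated WT mice, and KO-CFC holds nuclei of conditioned mice labelled a Csf2rb2 knockout in the title and Csf2rb3-KO in the genotype field. By the design text each group had 10 mice, and each was deposited as 1 library. The labels used here give no strain, age or sex. No difference therefore has a replicate check, no test was possible, and the intervals given are exact 95% intervals (Clopper-Pearson) that cover counting error only. The cells and the nuclei also went through different droplet kits and belonged to separate experiments, so method, kit and experiment cannot be told apart.

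A nucleus holds newly made, partly unspliced transcripts and non-coding RNAs that stay there, while a whole cell adds the spliced messenger RNA of the cytoplasm and the RNA of mitochondria. Dentate granule neurons carry long dendrites and axons that are cut when tissue is digested, and few adult neurons come through it whole. Microglia are the macrophages of the brain and are often isolated by digestion. Enzymes used in the warm are known to switch on immediate early genes, which encode transcription factors made within minutes of a stimulus, and microglia are known to respond in this way.

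The libraries differed in the RNA they held as well as in the cells. CFC-14d had 126937815 UMIs with a median of 1997 per barcode, and WT-CFC had 68519389 with a median of 2220. Of all UMIs, mitochondrial genes took 2.59% in CFC-14d and 0.599% in WT-CFC, ribosomal protein genes 5.94% and 0.635%, haemoglobin genes 5.34% and 0.00292%, and the nuclear RNA Malat1 0.839% and 13.7%. The other cell library and the other nuclei libraries lay on the same sides: haemoglobin took 10.7% of Random-14d, and Malat1 took 15.7% of WT-naive and 17.96% of KO-CFC. CFC-14d and WT-CFC shared 1 barcode, and CFC-14d and Random-14d shared 282.

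The cell library was led by microglia and the nuclei library by neurons. A barcode was given to a class when at least 5 of the 10 markers of that class had a UMI, and at least 2 more than for any of the other 17 classes. Microglia (P2ry12, Tmem119, Cx3cr1 and 7 other markers) made up 36.6% of CFC-14d, 12027 barcodes (interval 36.1 to 37.2), and 2.15% of WT-CFC, 284 barcodes (1.91 to 2.41). Neurons (Rbfox3, Snap25, Syt1 and 7 others) were 1 barcode of CFC-14d and 6099 of WT-CFC, 46.2% of its barcodes and 85.1% of its UMIs. Of these neuronal nuclei, 31.2% had at least 3 of 10 dentate granule neuron markers such as Prox1 and C1ql2, and 19.5% had at least 3 of 10 interneuron markers such as Gad1 and Gad2. Random-14d held 42.6% microglia and 1 neuron, and WT-naive and KO-CFC held 2.16% and 3.26% microglia and 61.3% and 53.4% neurons.

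Cells of the neural lineage were scarce among dissociated cells. Astrocytes (Aqp4, Gja1, Slc1a3), which clear glutamate and ions, were 0.594% of CFC-14d (195 barcodes) and 3.69% of WT-CFC (487). Oligodendrocyte precursors (Pdgfra, Cspg4) were 2 barcodes of CFC-14d and 346 of WT-CFC, 2.62%. Oligodendrocytes (Mog, Mag, Mobp), which wrap axons in myelin, were 1.73% (568) and 3.996% (528). The order for oligodendrocytes turned when each barcode was thinned to 500 UMIs, to 1.31% of CFC-14d (430 barcodes) and 0.598% of WT-CFC (79). Oligodendrocyte markers took a smaller part of the UMIs of this class in WT-CFC than in CFC-14d. These UMIs come from barcodes that had already passed the gate. Whether the gate was equally sensitive in cells and nuclei was not tested. The part of the gate in the shares was not tested. Thinning kept the order of microglia, at 19.01% and 0.613%. Astrocytes also kept theirs, but closer together and on few barcodes, at 0.107% (35 barcodes) and 0.189% (25). Barcodes classed as neuroblasts, the young neurons that express Dcx and Sox11, went the other way from neurons, with 137 in CFC-14d (0.417%) and 2 in WT-CFC. The gate would leave out any young neuron whose neuron markers came close in number to its neuroblast markers, and such barcodes were not counted. Dcx summed over the whole library was higher in WT-CFC, with a log2 ratio of -3.11. It was also present in the WT-CFC neuron class, at 29.1 CPM, and which nuclei held it was not tested. This share counts only barcodes that passed the gate.

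Vessel, ventricle and blood cells were recovered mainly as dissociated cells. Choroid plexus epithelium (Folr1, Kl, Clic6), which lines the ventricles and makes cerebrospinal fluid, was 9.96% of the barcodes of CFC-14d (3271) and 41.96% of its UMIs. It was 0 of 13213 barcodes in WT-CFC, with an exact upper limit of 0.0279%, and 17 barcodes in WT-naive. Endothelial cells were 4.16% and 0.235%, and mural cells, the pericytes and smooth muscle of vessels, 2.31% and 0.151%. CFC-14d further held 293 border macrophages (Mrc1, Pf4), 182 B cells, 114 monocytes, 110 T or NK cells, 60 fibroblasts, 24 ependymal cells, 22 erythroid cells, 19 neutrophils and 6 platelet-type barcodes. Each of these 9 classes had 0 barcodes in WT-CFC. KO-CFC was the only nuclei library with T or NK cells, 25 barcodes. No class was given to 41.6% of barcodes in CFC-14d and 40.99% in WT-CFC, whose median depths were 1070 and 593 UMIs. Barcodes with at least 5 markers of more than 1 class, which may be doublets or cells with carried RNA, were 13.6% and 6.27%, and none was removed.

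**Figure D1:**
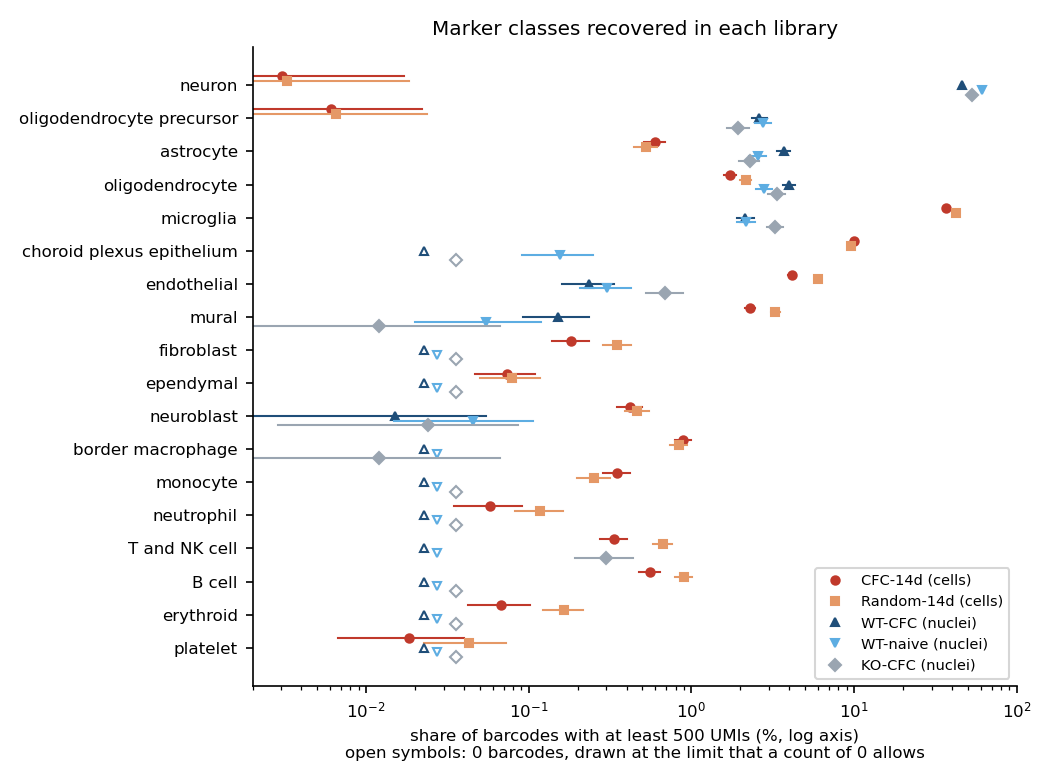
Share of barcodes with at least 500 UMIs (percent, log axis) in each of 18 marker classes, for 2 cell libraries and 3 nuclei libraries. Lines are exact 95% intervals (counting error only). Open symbols mark classes with 0 barcodes, drawn at the share that 3 barcodes would have, which is below the exact upper limit. Neurons lie at 0.00305% in CFC-14d and 46.2% in WT-CFC, while microglia lie at 36.6% in CFC-14d and 2.15% in WT-CFC.

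Summed over each whole library, the genes divided along the same lines. Counts were scaled to counts per 1000000 UMIs (CPM) and set as a log2 ratio of CFC-14d over WT-CFC with 0.5 counts added, for genes with at least 100 counts over both, and a gene was counted as higher or lower from 2-fold. Of 23728 genes, 25.1% were at least 2-fold higher in CFC-14d and 50.7% at least 2-fold lower, with a median log2 ratio of -1.06. The 10 neuron markers were all lower, with a median of -8.02, and the 10 microglia markers all higher, with a median of 5.25. Interneuron markers had a median of -8.15, choroid plexus markers 8.13, border macrophage markers 7.92 and endothelial markers 4.30. Markers were also what placed barcodes in classes, so these values restate the shares at the level of RNA. Neuroblast markers did not follow the share of their class: 4 of 10 were higher and 2 lower, with a median of 0.23 and Dcx lowest at -3.11. In such sums, fewer cells of a type and less RNA per cell cannot be told apart. Haemoglobin genes summed to 53356 CPM in CFC-14d and 29.2 CPM in WT-CFC. A separate pair of Random-14d cells and WT-naive nuclei shares no library with this pair but differs in treatment. It put 96.7% of the higher and 97.3% of the lower genes measured in both pairs past 2-fold on the same side. The remaining comparisons set cells against nuclei of the same class, in microglia, astrocytes and oligodendrocytes.

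RNA from other cells was present in each class and differed by method. Among WT-CFC microglia all 10 neuron markers were detected, at a sum of 2010.3 CPM, which was 29.3% of their level in neuronal nuclei. In CFC-14d microglia they summed to 30.9 CPM. WT-CFC astrocytes carried them at 17.5% and oligodendrocytes at 21.1% of the neuronal level. CFC-14d microglia instead carried choroid plexus markers at 13.4% of the choroid plexus level, Ttr at 52764 CPM and haemoglobin genes at 37540.2 CPM, where WT-CFC microglia had no Ttr UMI and 44.2 CPM of haemoglobin. CFC-14d astrocytes and oligodendrocytes carried microglia markers at 4.40% and 5.10% of the microglial level. Genes of neurons, choroid plexus, blood and microglia that differed in another class stand beside these values, and the part of carried RNA in them was not tested.

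Microglial barcodes had a median of 2277 UMIs in CFC-14d and 1435 in WT-CFC. The sum of CFC-14d held 30361928 UMIs and that of WT-CFC 430293, so that 3 counts in WT-CFC, the smallest level used for a gene with none, stood for 6.97 CPM. Of 12492 genes, 20.6% were at least 2-fold higher in cells and 32.3% at least 2-fold lower, with a median log2 ratio of -0.38. In 41.5% of these genes WT-CFC had under 10 counts. Because the sum of CFC-14d was far deeper, a gene could reach the minimum of 100 counts through the cells alone. A gene present only in nuclei needed a far higher CPM to enter. Counts of list members higher in cells in microglia carry this limit. With the median set to 0, the shares were 27.4% higher and 22.1% lower. Within a method the shares 2-fold apart either way were 0.993% of 14402 genes between CFC-14d and Random-14d, and 1.43% of 1400 between WT-CFC and WT-naive. The nuclei pair thus covers only well counted genes, 0 of them under 10 counts in the shallower library. The cell pair had 1 gene under 10 counts in its shallower library. Neither share is like for like with those over 12492 genes. The pair of Random-14d and WT-naive put 72.1% of the higher and 78.9% of the lower genes past 2-fold on the same side. It put 40 of the 2475 higher and 37 of the 3827 lower genes past 2-fold on the opposite side.

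Genes of the immediate early and dissociation list were far higher in dissociated microglia than in microglial nuclei. The list was chosen with earlier results of these data known, so its direction is no independent result. All 21 of its genes were measured and 21 were at least 2-fold higher. Their median log2 ratio was 4.97 against -0.38 over all genes. The median was the same with the 1 gene without a WT-CFC count at its bound. Fos, a subunit of the transcription factor AP-1, was at 4080.4 CPM in CFC-14d and 4302 in Random-14d, against 39.5 in WT-CFC, 12.4 in WT-naive and 2.76 in KO-CFC. Both cell libraries lay above the 3 nuclei libraries, by a log2 ratio of 6.65 (6.01 to 7.47) in the conditioned pair. Jun, its partner, was at 6904 CPM in CFC-14d and 6947 in Random-14d, against 314 in WT-CFC, 282 in WT-naive and 66.3 in KO-CFC, a log2 ratio of 4.45. Egr1, a zinc finger activator, was at 1634 CPM in CFC-14d and 1573 in Random-14d, against 51.1 in WT-CFC, 24.8 in WT-naive and 13.8 in KO-CFC. Atf3, a stress-induced factor, was at 1064 against 11.6 CPM in the conditioned pair and Dusp1, a phosphatase that ends MAP kinase signalling, at 744 against 9.30 CPM. Cell and nuclei libraries did not overlap for any of these 5 genes. The share of all genes without overlap is not given, here or for genes named below. Since 20.6% of genes were at least 2-fold higher in cells in the conditioned pair, a lack of overlap alone does not set a gene apart.

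Klf2, a Krüppel-like factor of quiescent immune and endothelial cells, gave the highest log2 ratio of the list, 9.10 (7.21 to 14.99), from 1911 CPM in CFC-14d and a single count in WT-CFC. Klf4 had no count in WT-CFC and 383 CPM in CFC-14d, at least 54.98-fold higher in cells. Nr4a1, a nuclear receptor of the same response, had the lowest ratio of the list, 1.71 (0.52 to 3.75), at 34.1 against 9.30 CPM. Nfkbia and Zfp36, which encode brakes on inflammatory signalling, were at 1626 against 37.2 CPM and 1258 against 55.8 CPM. Sertad1, at 112 CPM in CFC-14d and with no count in WT-CFC, was at least 16.1-fold higher in cells.

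Promoter stretches of genes of this list are shown. RefSeq promoter windows (250 bases before to 50 after the gene start, build GRCm38.p6) were found for 18 of the 21 genes. The 6-base core of the cAMP response element, TGACGT, read on both strands, was in 4 of them (22.2%), against 8.37% of all 27025 symbols with such a window. The AP-1 element TGACTCA was in 0 of them, against 5.95% of all. The stretches around the core, upstream of the gene start and 5′ to 3′ on the strand of the gene, are printed with the core in capitals, read as TGACGT or as its reverse complement. They lie at chr12:85473794-85473859 on the plus strand (Fos), chr1:191183334-191183371 on the minus strand (Atf3), chr1:134079286-134079351 on the minus strand (Btg2) and chr17:26508628-26508693 on the minus strand (Dusp1). The core begins 66 bases before the gene start in Fos, 8 in Atf3, 166 in Btg2 and 191 in Dusp1. Letters that match an element show neither binding nor a cause.
Fos: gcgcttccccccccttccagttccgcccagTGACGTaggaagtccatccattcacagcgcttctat
Atf3: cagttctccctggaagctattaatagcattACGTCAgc
Btg2: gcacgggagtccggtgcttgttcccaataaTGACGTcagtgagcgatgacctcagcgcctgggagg
Dusp1: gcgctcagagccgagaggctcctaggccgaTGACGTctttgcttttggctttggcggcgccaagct

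Chemokine and cytokine genes, which call in and activate immune cells, followed the same direction. All 12 were measured and 12 were at least 2-fold higher in cells, with a median log2 ratio of 4.40, or 2.42 with the 5 genes that had no count in WT-CFC put at their bound. Ccl4 was at 619.7 CPM in CFC-14d and 793 in Random-14d, against 4.65 in WT-CFC, 3.10 in WT-naive and 35.9 in KO-CFC, a log2 ratio of 6.74 (5.21 to 10.10). Ccl3 was at 334 CPM in CFC-14d and 559.7 in Random-14d, against 0 in WT-CFC, 9.28 in WT-naive and 8.29 in KO-CFC, and was at least 47.9-fold higher in CFC-14d than in WT-CFC. Both cell libraries lay above the 3 nuclei libraries for these genes, and KO-CFC was the highest of the nuclei libraries for Ccl4. Ccl12 was at 317 against 27.9 CPM and Ccl2 at 297 against 4.65 CPM. Tnf, at 75.1 CPM in CFC-14d and 1 count in WT-CFC, stood at 15.5 CPM in WT-naive and 46.95 in KO-CFC, so the other nuclei libraries lay closer to the cells. Il1b was at 31.9 CPM in CFC-14d and had no count in any nuclei library, which makes it at least 4.57-fold higher in the conditioned pair.

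Genes of antigen presentation were higher in dissociated microglia than in WT-CFC nuclei, but not in every nuclei library. Of 10 measured genes 9 were at least 2-fold higher, with a median of 3.05, and the same median with 4 genes at their bound. B2m, the light chain of class I molecules, was at 1433 CPM in CFC-14d and 1491 in Random-14d, against 121 in WT-CFC, 64.995 in WT-naive and 398 in KO-CFC. Here the cells lay above every nuclei library. H2-D1, a class I heavy chain, was at 493 CPM in CFC-14d and 438 in Random-14d, against 83.7 in WT-CFC, 15.5 in WT-naive and 909 in KO-CFC, and KO-CFC lay above both cell libraries. The class II chaperone Cd74 was at 237 CPM in CFC-14d and 203 in Random-14d, against 0 in WT-CFC, 0 in WT-naive and 867 in KO-CFC. It was at least 34.03-fold higher in CFC-14d than in WT-CFC, and in KO-CFC nuclei it was higher than in the cells. H2-Ab1, H2-Aa and H2-Eb1, the class II chains, had no count in WT-CFC either and were at least 26.9-, 22.2- and 18.1-fold higher in CFC-14d. Markers of other immune cells were also present. In microglia of CFC-14d, WT-CFC and KO-CFC, B cell markers summed to 57.9, 13.9 and 13.8 CPM and border macrophage markers to 259, 202 and 102 CPM. Monocyte markers summed to 74.9, 16.3 and 69.1 CPM, and T and NK markers to 34.5, 6.97 and 99.4 CPM. Their part in these values was not tested.

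Transcripts of abundant secreted and lysosomal proteins were higher in cells by smaller factors. Of the 18 lysosome and ferritin genes, all measured, 15 were at least 2-fold higher and none lower, with a median of 1.81. Cst3, an inhibitor of cathepsins, was at 38749 CPM in CFC-14d and 44939 in Random-14d, against 4662 in WT-CFC, 2009 in WT-naive and 3555 in KO-CFC, a log2 ratio of 3.05 (2.99 to 3.12). The cathepsins ran from 1.08 for Ctsb to 2.18 for Ctsz, while Psap and Lamp2, at 0.55 and 0.57, stayed under 2-fold. Of 10 complement genes 8 were measured and 7 were at least 2-fold higher, or 6 with the gene that had no WT-CFC count at its bound. C1qa, a chain of the first complement component, was at 6809.6 CPM in CFC-14d and 7288 in Random-14d, against 1088 in WT-CFC, 616 in WT-naive and 1801 in KO-CFC, with C1qb and C1qc at log2 ratios of 3.14 and 2.69. Of 13 genes linked to disease-associated microglia 12 were measured and 12 were at least 2-fold higher, with a median of 2.21. The 4 genes at 0 counts in WT-CFC entered through the cells alone. With these put at their bound, 9 genes were higher and the median was 1.73. Tyrobp, a signalling adaptor, was at 1899 against 223 CPM, Trem2, its receptor partner, at 1966 against 360.2 CPM and Apoe, a lipid carrier, at 2759 against 462 CPM. Apoe stood at 4328 CPM in KO-CFC nuclei, above both cell libraries.

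Genes for transcription factors and signalling proteins of microglia went the other way. Of 20 genes, all measured, 12 were at least 2-fold lower in cells and 3 at least 2-fold higher, with a median of -1.21. Mef2c, a factor of microglial identity, was at 1406 CPM in WT-CFC, 1461 in WT-naive and 1033 in KO-CFC, against 570.5 in CFC-14d and 611 in Random-14d, a log2 ratio of -1.30 (-1.42 to -1.18). Mertk, a receptor for dying cells, was at 1392 CPM in WT-CFC, 1188 in WT-naive and 911 in KO-CFC, against 473 in CFC-14d and 459 in Random-14d. For both genes the 3 nuclei libraries lay above the 2 cell libraries. Mef2a, Runx1 and Ikzf1 had ratios of -1.59, -1.39 and -1.52. Among the genes higher in cells were Irf8 at 1.38 and Spi1 at 1.03, which encode factors of the macrophage lineage. Transforming growth factor receptors Tgfbr1 and Tgfbr2 stood at -1.21 and -0.84.

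Interferon response genes rested on few counts in nuclei. Of 18 listed, 15 were measured in microglia and 12 were at least 2-fold higher in cells, with a median of 2.05. With the 6 genes without a WT-CFC count at their bound, 8 were higher, 1 lower, and the median was 1.20. Bst2, which tethers enveloped viruses, was at 203 CPM in CFC-14d and 189 in Random-14d, against 20.9 in WT-CFC, 9.28 in WT-naive and 149 in KO-CFC, a log2 ratio of 3.20 (2.35 to 4.41). Ifitm3, which blocks viral entry, was at 96.2 CPM in CFC-14d and 75.8 in Random-14d, against 0 in WT-CFC, 0 in WT-naive and 88.4 in KO-CFC, at least 13.8-fold higher in CFC-14d than in WT-CFC. Stat2, a signal carrier of the interferon receptor, had the lowest ratio, -0.56 (-1.32 to 0.46). Summed over the list, KO-CFC microglia were highest at 1185 CPM, followed by CFC-14d cells at 570.2 and those of Random-14d at 474. WT-CFC and WT-naive nuclei stood at 109 and 83.6 CPM, so the nuclei libraries lay on both sides of the cells.

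The receptors for interleukin-3 and GM-CSF were sparse in both methods. In microglia Csf2rb was at 39.5 CPM in CFC-14d and 38.7 in Random-14d, against 30.2 in WT-CFC, 37.1 in WT-naive and 44.2 in KO-CFC, with a log2 ratio of 0.33 (-0.39 to 1.30). Csf2rb2, the subunit specific to interleukin-3 in the mouse, was at 11.3 CPM in CFC-14d and 11.6 in Random-14d, against 6.97 in WT-CFC, 15.5 in WT-naive and 16.6 in KO-CFC. WT-CFC rested on 3 counts, and the ratio of 0.48 had an interval of -0.86 to 2.98. No difference between methods was detectable for either gene at this depth. The genes are close copies of each other, and how reads that fit both were counted is not stated, so their split is uncertain. Il3ra had 81 counts in CFC-14d microglia and none in WT-CFC, and Il3 had no count in any library. Over whole libraries Csf2rb2 was higher in nuclei, at 17.6 CPM in WT-CFC, 14.4 in WT-naive and 9.67 in KO-CFC, against 3.53 in CFC-14d and 3.83 in Random-14d. Csf2rb was higher in cells, at 12.98 CPM in CFC-14d and 12.7 in Random-14d, against 1.82 in WT-CFC, 1.68 in WT-naive and 2.81 in KO-CFC. The library labelled KO-CFC thus still held Csf2rb2 UMIs.

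Of 12 heat shock genes, all measured, 8 were at least 2-fold higher in dissociated microglia and 1 lower, with a median of 1.35, or 1.35 with Hspb1 at its bound. Dnajb1, a co-chaperone, was at 539.9 against 39.5 CPM and Hspa1a, an inducible Hsp70 with the near-identical copy Hspa1b, at 179.7 against 20.9 CPM. Hspb1, a small chaperone with no count in WT-CFC, was at least 19.7-fold higher. Hsph1, which encodes a nucleotide exchange factor for Hsp70, was the gene that went the other way, at 186 CPM in WT-CFC, 164 in WT-naive and 63.5 in KO-CFC, against 44.9 in CFC-14d and 53.3 in Random-14d, a log2 ratio of -2.06 (-2.38 to -1.71). Its KO-CFC value lay close to the cells. Among glucocorticoid response genes, 2 of 11 measured were at least 2-fold higher and 3 lower, shares near the 20.6% and 32.3% of all genes. Tsc22d3, an anti-inflammatory target of the hormone, was at 296 CPM in CFC-14d and 259 in Random-14d, against 32.5 in WT-CFC, 37.1 in WT-naive and 11.05 in KO-CFC. Cdkn1a, a cell cycle inhibitor, was at 107 CPM in CFC-14d and 1 count in WT-CFC. Fkbp5, a co-chaperone of the receptor, was at 299.8 CPM in WT-CFC, 152 in WT-naive and 163 in KO-CFC, against 50.6 in CFC-14d and 41.7 in Random-14d. Nr3c2, the mineralocorticoid receptor, had a log2 ratio of -3.09. Of 17 sterol and lipid synthesis genes, 10 were at least 2-fold lower in cells and 0 higher, with a median of -1.05, and Hmgcs1, the synthase of the first sterol step, was at 27.8 against 95.3 CPM.

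**Figure D2:**
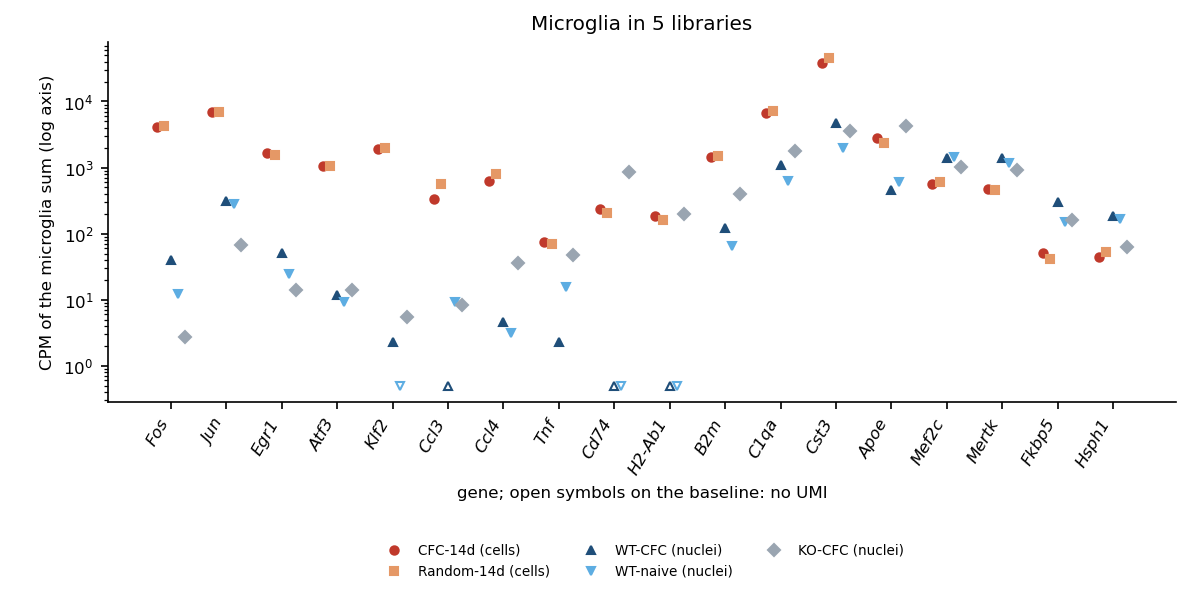
Level of 18 list members in microglia (CPM of the summed counts, log axis) in 2 cell libraries and 3 nuclei libraries, each point being 1 library; open symbols on the baseline stand for no UMI. Fos, Jun, Egr1, Atf3 and Klf2 lie higher in both cell libraries than in the 3 nuclei libraries, Mef2c, Mertk and Fkbp5 lie lower, and Cd74 and H2-Ab1 lie high in KO-CFC nuclei.

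Cytoplasmic and mitochondrial RNA was higher in cells in each of the 3 classes. Of 28 cytosolic ribosomal protein genes, 26 of 28 measured were at least 2-fold higher in microglia, 20 of 26 in astrocytes and 26 of 28 in oligodendrocytes, with none lower in any class. For astrocytes and oligodendrocytes the backgrounds were 20.2% and 29.8% of 3076 and 5364 genes at least 2-fold higher in cells. The medians were 2.04, 1.60 and 1.90. Rps29 had the lowest ratio of the list in each class, 0.53, 0.31 and 0.28. Nuclear genes of oxidative phosphorylation, which encode subunits of the respiratory chain, had medians of 1.17, 1.86 and 1.67. Actin and tubulin genes had medians of 1.58, 1.82 and 1.71. Tmsb4x, an actin-binding peptide, was at 10489.7 against 865 CPM in microglia and 6460.2 against 477 CPM in oligodendrocytes. Splicing and RNA-binding protein genes lay around 0, with medians of 0.12, 0.12 and -0.10.

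Genes of the mitochondrial genome were divided. In microglia 9 of 13 were at least 2-fold higher in cells and 2 lower, with a median of 1.85, and in oligodendrocytes 8 were higher and 2 lower of 12 measured. In astrocytes 9 of 9 measured were higher, with a median of 3.10. mt-Co1, a cytochrome oxidase subunit, was at 1758 CPM in CFC-14d and 1345 in Random-14d, against 195 in WT-CFC, 241 in WT-naive and 191 in KO-CFC in microglia. mt-Nd3, a subunit of complex I, was at 112 CPM in WT-CFC, 24.8 in WT-naive and 13.8 in KO-CFC, against 5.63 in CFC-14d and 2.78 in Random-14d in microglia, a log2 ratio of -4.32 (-4.78 to -3.81). In oligodendrocytes it was at 169.6 CPM in WT-CFC, 20.2 in WT-naive and 29.7 in KO-CFC, against 7.36 in CFC-14d and 2.47 in Random-14d. WT-CFC held the highest value of the 5 libraries in both classes, above the other nuclei. mt-Atp8, a subunit of ATP synthase, was at 65.1 CPM in WT-CFC, 58.8 in WT-naive and 63.5 in KO-CFC, against 29.8 in CFC-14d and 23.2 in Random-14d in microglia.

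Most listed nuclear non-coding RNAs were higher in nuclei in microglia and oligodendrocytes, and fewer in astrocytes. The backgrounds for genes at least 2-fold lower in cells were 17.8% in astrocytes and 22.9% in oligodendrocytes. Of 14 listed RNAs, 8 of 10 measured were lower in cells in microglia, 3 of 7 in astrocytes and 7 of 8 in oligodendrocytes. Malat1 was at 73506 CPM in WT-CFC, 75899 in WT-naive and 90774 in KO-CFC, against 14645 in CFC-14d and 15689 in Random-14d in microglia, and its log2 ratios were -2.33, -1.62 and -2.51 in microglia, astrocytes and oligodendrocytes. Neat1, which builds paraspeckles in the nucleus, was at 1051 CPM in WT-CFC, 802 in WT-naive and 849 in KO-CFC, against 177 in CFC-14d and 136 in Random-14d in oligodendrocytes, with no overlap of the methods. In microglia it was at 53.8 against 58.1 CPM, a log2 ratio of -0.14 (-0.68 to 0.52), and the difference between the classes was not tested. Gas5, a host of small nucleolar RNAs, was under 2-fold in each class, at 0.43, 0.52 and 0.81. Meg3 and Snhg11, which are neuronal RNAs, had ratios of -6.85 and -8.02 in microglia, beside neuron markers at 29.3% of the neuronal level in the nuclei.

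Long genes of neuronal adhesion and synapses were lower in cells. In microglia 19 of 19 measured were at least 2-fold lower, with a median of -4.95, in astrocytes 12 of 19 with -1.05, and in oligodendrocytes 18 of 18 with -2.83. In microglia the direction turned when carried RNA was subtracted, an alternative chosen after seeing the data: with the neuronal profile taken off the nuclei at the level of their neuron markers, and the choroid plexus profile off the cells, 11 genes were left with a median of 2.83. In astrocytes and oligodendrocytes such a subtraction left medians of -0.75 and -1.68. Magi2, a scaffold protein gene that oligodendrocytes express themselves, was at 3425 CPM in WT-CFC, 3179 in WT-naive and 2618 in KO-CFC, against 937 in CFC-14d and 889 in Random-14d in that class. Pcdh9, a protocadherin, was at 8581 CPM in WT-CFC, 11747 in WT-naive and 7123 in KO-CFC, against 2077 in CFC-14d and 2109 in Random-14d. For both genes the 3 nuclei libraries lay above the cells.

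The ratio of cells to nuclei was lower the longer the span of a gene from start to end, introns included. Spans came from GENCODE M21, which is on GRCm38 while the files are on GRCm39, and were matched by gene ID for 94.3% of measured microglia genes, 98.02% in astrocytes and 98.6% in oligodendrocytes. Below 10 kb the median log2 ratio was 0.70 in microglia, 1.495 in astrocytes and 1.57 in oligodendrocytes. Between 30 and 100 kb it was -0.80, -0.24 and -0.28. Above 300 kb it was -2.28, -0.99 and -2.19. In oligodendrocytes 262 of 286 genes over 300 kb were at least 2-fold lower in cells and 0 higher, and under 10 kb 734 of 1039 were higher and 47 lower. Ribosomal protein, haemoglobin and mitochondrially encoded genes were left out of these groups and of the matched shares. Short genes include nuclear genes of the respiratory chain, and genes are not independent replicates.

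**Figure D3:**
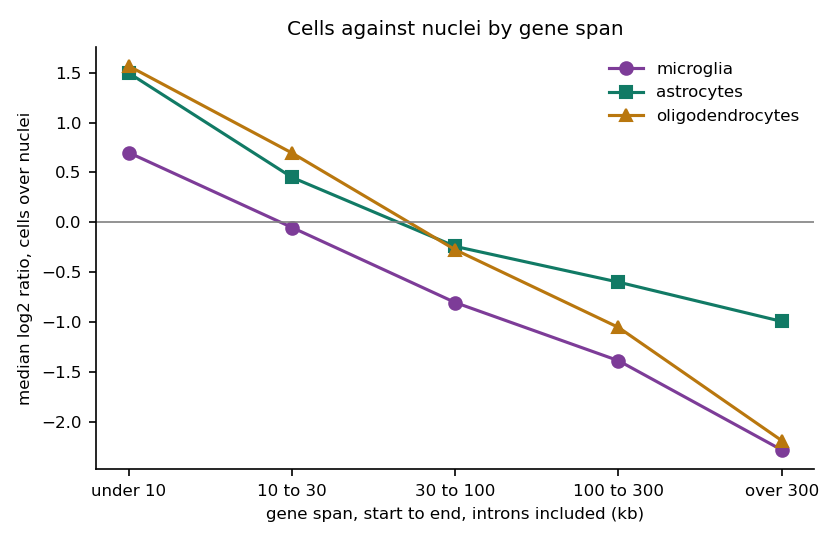
Median log2 ratio of CFC-14d cells over WT-CFC nuclei (y axis) for genes grouped by span in kb (x axis), one line per class, over genes with at least 100 counts in both libraries together. Ribosomal protein, haemoglobin and mitochondrially encoded genes are left out. In microglia the median runs from 0.70 below 10 kb to -2.28 above 300 kb, and the lines of astrocytes and oligodendrocytes run down as well.

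Within astrocytes 20.2% of 3076 genes were at least 2-fold higher in cells and 17.8% lower, from sums of 521035 UMIs in CFC-14d and 1156955 in WT-CFC. Between libraries of 1 method, 0.78% of 1539 genes (CFC-14d and Random-14d) and 2.05% of 3120 (WT-CFC and WT-naive) were 2-fold apart either way. Genes of transport and metabolism were mostly higher in cells or under 2-fold: of 20 measured, 10 were at least 2-fold higher and 0 lower, with a median of 0.98. Aldoc, a glycolytic aldolase of astrocytes, was at 1915 CPM in CFC-14d and 1847 in Random-14d, against 240.3 in WT-CFC, 258 in WT-naive and 539 in KO-CFC, a log2 ratio of 2.99 (2.80 to 3.19). Mt1, a metallothionein that binds zinc, was at 4169 CPM in CFC-14d and 3367 in Random-14d, against 640.5 in WT-CFC, 571 in WT-naive and 2334 in KO-CFC. Cells lay above each nuclei library for both genes, KO-CFC being the nearest. Apoe, the lipid carrier, was at 20611 against 5884 CPM and Glul, glutamine synthetase, at 1382 against 573 CPM. The glutamate transporter Slc1a2 was at 6600.3 against 6244 CPM, with a ratio of 0.08 (0.02 to 0.14).

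Of 20 astrocyte genes of adhesion and signalling, 5 were at least 2-fold lower in cells, a share near the 17.8% of all genes, and 1 was higher, with a median of -0.77. Wdr17, a WD-repeat protein gene, was at 3461 CPM in WT-CFC, 3189 in WT-naive and 2095 in KO-CFC, against 545 in CFC-14d and 331 in Random-14d, a log2 ratio of -2.66 (-2.85 to -2.49). Gpc5, a glypican of the cell surface, was at 3029 against 6217 CPM and Trpm3, a cation channel, at 566 against 1449 CPM. The nuclei libraries lay above the cells for Wdr17, Gpc5 and Trpm3. Sox9, an astrocyte transcription factor with a compact gene, was the gene that was higher in cells, at 305 CPM in CFC-14d and 262 in Random-14d, against 82.1 in WT-CFC, 122 in WT-naive and 182 in KO-CFC. Gfap, the intermediate filament of reactive astrocytes, was at 209 CPM in CFC-14d and 394 in Random-14d, against 187 in WT-CFC, 191 in WT-naive and 879 in KO-CFC, with the highest level in KO-CFC nuclei. The conditioned pair differed by a log2 ratio of 0.17 (-0.18 to 0.50). Of the 21 genes of the immediate early and dissociation list 3 had enough counts in astrocytes, all higher in cells. Jun was at 273 against 44.9 CPM.

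The genes with the largest ratios in astrocytes, outside the markers and lists, included calcium and lipid binders, enzymes and transcription factors. S100a1, a calcium-binding protein gene, was at 529.7 CPM in CFC-14d and 539.9 in Random-14d, against 31.98 in WT-CFC, 15.1 in WT-naive and 43.1 in KO-CFC, a log2 ratio of 4.03 (3.55 to 4.59). Sox2, a single-exon factor of neural stem cells and astrocytes, was at 461 CPM in CFC-14d and 391.6 in Random-14d, against 31.98 in WT-CFC, 40.2 in WT-naive and 71.8 in KO-CFC. Both cell libraries lay above the nuclei for each. Dbi, which encodes a binder of acyl-CoA, Ckb, brain creatine kinase, and Gapdh, a glycolytic enzyme, had ratios of 3.57, 3.46 and 3.34. Fabp7, the fatty acid binding protein of radial glia, was at 345 against 38.03 CPM and Id3, an inhibitor of basic helix-loop-helix factors, at 509 against 55.3 CPM.

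Several genes higher in astrocyte nuclei are genes of neurons. Cck, a neuropeptide, was at 293 CPM in WT-CFC, 391.5 in WT-naive and 235 in KO-CFC, against 0 in CFC-14d and 0 in Random-14d, and Hpca, Nefl, Stmn3, Ncdn, Uchl1 and Ywhag were also among the 12 lowest ratios. WT-CFC nuclei outside the class held Cck at 255 CPM and Hpca at 135 CPM, against 293 and 138 CPM in the class. With no count in the cells, Cck was at least 50.9-fold higher in WT-CFC astrocytes. In microglia Cck was at 507 CPM in WT-CFC, 554 in WT-naive and 403 in KO-CFC, against 0.560 in CFC-14d and 0.561 in Random-14d. In oligodendrocytes it had 317 CPM in WT-CFC and no count in the cells, at least 230.0-fold higher in nuclei. Neuron markers stood at 1203 CPM in WT-CFC astrocytes and 28.8 CPM in CFC-14d astrocytes, and their part in these ratios was not tested. Insyn2a, lower in cells at 5.76 against 86.4 CPM, overlaps Dock1 on the other strand by 56.5 kb. Reads of such a pair can be told apart only by strand, and the strand setting of the counting is not stated.

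Cmss1 was higher in nuclei in each class. In astrocytes it was at 9850.0 CPM in WT-CFC, 9272 in WT-naive and 2329 in KO-CFC, against 829 in CFC-14d and 864 in Random-14d. In oligodendrocytes it was at 11049 CPM in WT-CFC, 8556 in WT-naive and 2063 in KO-CFC, against 381 in CFC-14d and 347 in Random-14d. In microglia it was at 14255 CPM in WT-CFC, 13522 in WT-naive and 3369.7 in KO-CFC, against 359.9 in CFC-14d and 269 in Random-14d. The log2 ratios were -3.57, -4.86 and -5.31, and WT-CFC nuclei outside those classes held 4499, 4480.4 and 4528 CPM. KO-CFC nuclei lay between the cells and the other nuclei in each class. Cmss1 overlaps Filip1l on the other strand by 220.0 kb. Filip1l was higher in cells in astrocytes, at 199.6 CPM in CFC-14d and 111 in Random-14d, against 15.6 in WT-CFC, 16.7 in WT-naive and 16.8 in KO-CFC, with a ratio of 3.65. Zbtb16, a zinc finger factor induced by glucocorticoids, was another gene lower in cells in more than 1 class, at 266 CPM in WT-CFC, 102 in WT-naive and 69.4 in KO-CFC, against 24.95 in CFC-14d and 23.2 in Random-14d in astrocytes. In oligodendrocytes it was at 306 CPM in WT-CFC, 196 in WT-naive and 95.6 in KO-CFC, against 8.27 in CFC-14d and 12.4 in Random-14d. WT-CFC was the highest of the nuclei libraries in both classes.

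Within oligodendrocytes 29.8% of 5364 genes were at least 2-fold higher in cells and 22.9% lower, from sums of 2175331 and 1131826 UMIs. Within a method 0.369% of 5967 genes (CFC-14d and Random-14d) and 2.24% of 3215 (WT-CFC and WT-naive) were 2-fold apart either way. Of 21 myelin genes, all measured, 12 were at least 2-fold higher in cells and 2 lower, with a median of 1.32. Cryab, a small heat shock protein, was at 8428 CPM in CFC-14d and 8841 in Random-14d, against 376 in WT-CFC, 271 in WT-naive and 570.1 in KO-CFC, a log2 ratio of 4.48 (4.35 to 4.63). Car2, carbonic anhydrase, was at 4600.2 CPM in CFC-14d and 4991 in Random-14d, against 641 in WT-CFC, 671 in WT-naive and 705 in KO-CFC. Both cell libraries lay above the nuclei for Cryab and Car2. Mbp, which encodes myelin basic protein and whose RNA is carried out into the myelin sheath, differed by 0.40 (0.34 to 0.45), at 4200.3 against 3189.5 CPM.

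Regulators of the lineage were divided. Olig1 and Nkx6-2 were higher in cells, at log2 ratios of 2.37 and 2.71, while Sox10 and Myrf stood at -0.28 and -0.23. St18, a zinc finger factor, was at 1725 CPM in WT-CFC, 1503 in WT-naive and 1521 in KO-CFC, against 447 in CFC-14d and 417 in Random-14d. Nfasc, a cell adhesion protein, was at 977 CPM in WT-CFC, 913 in WT-naive and 712 in KO-CFC, against 324 in CFC-14d and 329.8 in Random-14d. The nuclei libraries lay above the cells for St18 and Nfasc. Apod, a lipid carrier, was at 3745 CPM in CFC-14d and 4001 in Random-14d, against 727 in WT-CFC, 297 in WT-naive and 555 in KO-CFC. Its log2 ratio was 2.36 in the conditioned pair and 3.75 in the pair of Random-14d and WT-naive. Of 15 measured sterol genes 5 were at least 2-fold higher in cells, a share near the 29.8% of all genes, and 1 was lower, with a median of 0.69. Fdps and Idi1, enzymes of the isoprenoid steps, had ratios of 2.53 and 2.44.

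**Figure D4:**
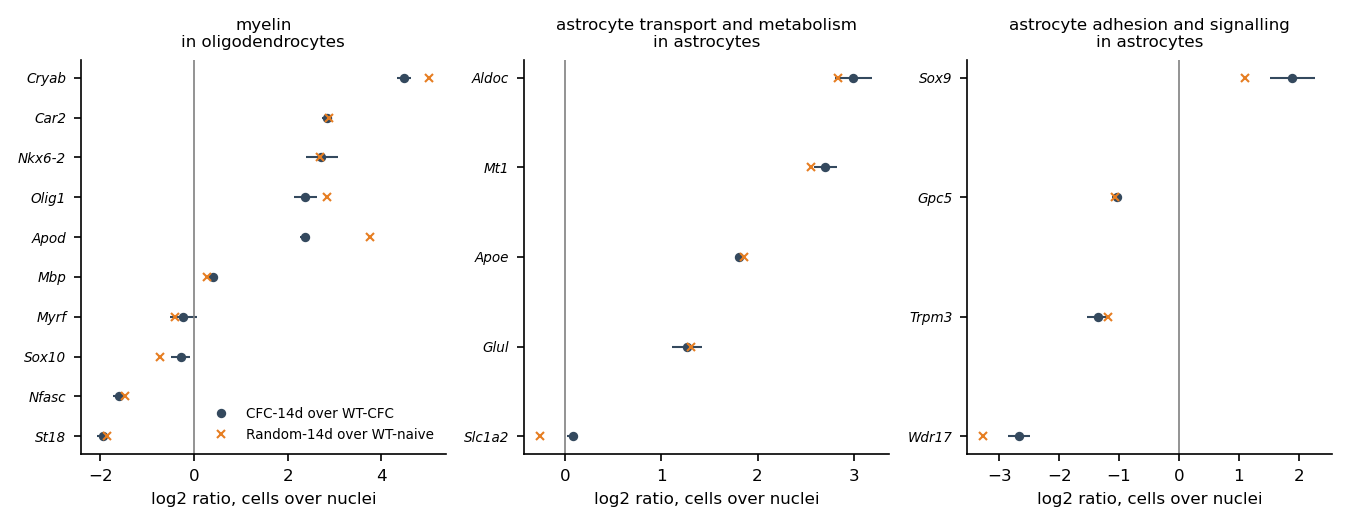
Log2 ratio of cells over nuclei (x axis) for the members of the myelin list in oligodendrocytes and of both astrocyte lists in astrocytes that the text names; circles with 95% counting intervals are CFC-14d over WT-CFC and crosses are Random-14d over WT-naive. Cryab stands at 4.48 and St18 at -1.95 in oligodendrocytes, and Aldoc at 2.99 and Wdr17 at -2.66 in astrocytes.

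Genes of the immediate early and dissociation list were higher in dissociated oligodendrocytes as well, in all 14 of 14 members with enough counts of 21. Their median was 3.13. Fos was at 368 CPM in CFC-14d and 401 in Random-14d, against 5.30 in WT-CFC, 0 in WT-naive and 6.59 in KO-CFC, a log2 ratio of 6.004 (4.99 to 7.57). Jund, a further AP-1 subunit, was at 616 CPM in CFC-14d and 641 in Random-14d, against 22.97 in WT-CFC, 7.20 in WT-naive and 19.8 in KO-CFC. Klf2 had no count in WT-CFC and 141 CPM in CFC-14d, at least 53.2-fold higher. Cells lay above the nuclei for these 3 genes. The microglial level of Fos in CFC-14d was 4080.4 CPM and microglia markers stood at 5.10% of their microglial level in CFC-14d oligodendrocytes. After subtraction of the microglial profile at that level the list had a median of 2.53. For the microglial complement gene C1qa, the values were 491 against 4.42 CPM in oligodendrocytes and 518 against 13.8 CPM in astrocytes, beside 6809.6 CPM in CFC-14d microglia, and the part of carried RNA was not tested.

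The genes with the largest ratios in oligodendrocytes were of mixed kind, some of them list members (Lcn2, Ifi27l2a, Jund, Cryab and Pfn1). S100a9 and S100a8, the calgranulins of neutrophils, and Lcn2, a siderophore binder, were at 413, 343 and 63.9 CPM in CFC-14d, with no count in WT-CFC, and at least 156-, 129.6- and 24.1-fold higher. In Random-14d the same genes stood at 66.4, 39.99 and 0.412 CPM, which set the cell libraries apart from each other. Neutrophil markers summed to 301 CPM in CFC-14d oligodendrocytes (9 of 10 detected), 17.7 in Random-14d and 0.884 in WT-CFC, and their part was not tested. Tppp3, a tubulin polymerization factor, was at 489 CPM in CFC-14d and 524 in Random-14d, against 17.7 in WT-CFC, 12.97 in WT-naive and 21.4 in KO-CFC, a log2 ratio of 4.75. Pfn1, which binds actin monomers, was at 302 against 19.4 CPM and S100a13, a calcium-binding protein, at 320.4 against 21.2 CPM.

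Among genes higher in oligodendrocyte nuclei, some were little present outside the class. Slc13a1, a sulphate transporter gene, was at 125 CPM in WT-CFC, 105 in WT-naive and 49.4 in KO-CFC, against 2.30 in CFC-14d and 0.412 in Random-14d, with 1.34 CPM in the other WT-CFC nuclei. Fbxw15, an F-box protein gene, was at 101 CPM in WT-CFC, 63.4 in WT-naive and 46.1 in KO-CFC, against 0.460 in CFC-14d and 0.412 in Random-14d, with 1.08 CPM outside. The nuclei libraries lay above the cells for both genes. Bcas1os2, at 1.38 against 124 CPM, overlaps Bcas1 on the other strand by 24.1 kb, and Lrrtm3, at 10.1 against 246 CPM, overlaps Ctnna3, which was itself at 189.9 against 734 CPM. In microglia the same holds for Lysmd4, at 539 CPM in WT-CFC, 659 in WT-naive and 445 in KO-CFC, against 6.49 in CFC-14d and 7.20 in Random-14d, which overlaps Mef2a by 76.2 kb. Mef2a was at 516 CPM in cells and 1557 in WT-CFC nuclei, and reads of such pairs cannot be assigned without the strand setting.

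**Figure D5:**
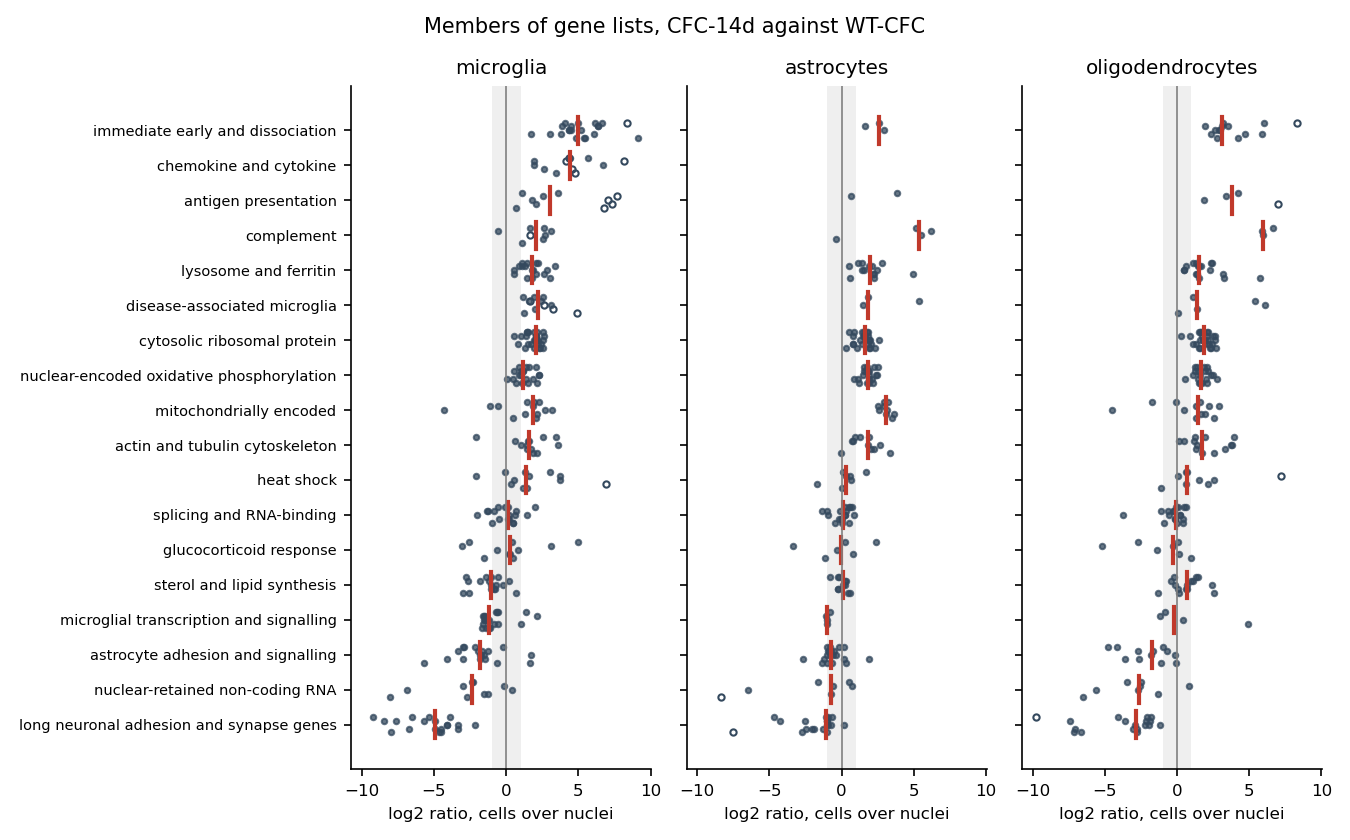
Log2 ratio of CFC-14d cells over WT-CFC nuclei (x axis) for each measured member of 18 gene lists in microglia, astrocytes and oligodendrocytes; red bars are medians of lists with 3 or more measured members, open circles are genes with no count in one library, and the grey band marks under 2-fold. Genes of the immediate early and dissociation list have medians of 4.97 in microglia and 3.13 in oligodendrocytes. Long neuronal genes have medians of -4.95, -1.05 and -2.83 in the classes as ordered.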

How the data were processed

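Counts of UMIs per gene and barcode were used as deposited, 1 filtered matrix for each of 5 libraries. Per the file headers, the authors used Cell Ranger 8.0.1 for these counts. GRCm39 and Seurat 5.4.0 are named in the submitters' processing notes. The annotation release, cell calling and the use of introns and strand are not stated, and counting introns adds to nuclear levels of long genes. Each library was taken whole, and 0 columns belonged to other samples.

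Markers, lists and comparisons were chosen with earlier results of these data known, and the limits of the marker gate (5 of 10 markers, 2 more than any other class) were set after the data were seen. No doublet caller was run, since barcodes were classed by markers only and doublets were counted, not removed. Counts were summed per library and class, and ratios were taken with 0.5 counts added, keeping those genes whose counts in the pair came to 100 or more. With 1 library per group, values carry exact 95% intervals (Python 3.11.15, scipy 1.17.1) and no p-value. A gene with no count in 1 library was set at 3 counts there for a lower bound. The scripts were tested on simulated data.

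Beside list members, the genes named are the 12 highest and 12 lowest log2 ratios of each class among genes with at least 50 CPM where higher and no less than outside the class there, without markers, unnamed models and genes that are sex-linked, haemoglobin, ribosomal or mitochondrial. Members with the highest or lowest ratio of a list were to be named, as were the interleukin-3 receptor genes. The other list members were chosen for their roles after their values were seen. Alternatives were a minimum of 1000 UMIs, a mitochondrial limit, stricter markers, thinning to 500 UMIs, other count minimums, 5 counts added, 4-fold, median centring and the other libraries. Subtraction of carried RNA and a minimum mean level of 20 counts in the shallower library were added after seeing the data. Some genes that the rules would name are not reported here.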

Additional observations from a re-analysis of the deposited data

Results flagged for a closer look

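For 4 genes of the lists, the ratio of cells to nuclei had opposite signs in a pair of classes, both in the conditioned pair and in that of Random-14d and WT-naive, and the difference between the classes was not tested. Cxcl14, a chemokine of glia, had a log2 ratio of cells to nuclei of -1.68 in microglia and 1.72 in astrocytes, a difference of -3.40. Hmgcs1, a sterol enzyme, had -1.80 in microglia and 1.12 in oligodendrocytes, a difference of -2.91. In KO-CFC microglia Hmgcs1 was at 19.3 CPM, among the cells at 27.8 and 17.6 CPM. Olig1, a factor of the oligodendrocyte lineage, had -1.99 in microglia and 2.37 in oligodendrocytes, a difference of -4.36. Tubb4a, a tubulin of neurons and oligodendrocytes, had -2.07 and 1.24 in these classes, a difference of -3.31. In microglia Olig1 was at 6.72 and 3.74 CPM in cells and 25.6, 9.28 and 16.6 CPM in nuclei. Markers of oligodendrocyte precursors summed to 21.8 CPM in CFC-14d microglia and 293 in WT-CFC microglia, and oligodendrocyte markers to 209 and 284 CPM. Neuron markers stood at 29.3% of the neuronal level in WT-CFC microglia. The part of carried RNA was not tested.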

How the results depend on the processing

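No paired analysis was possible because each group is 1 library. The shares of barcodes moved with the gate, and the values for CFC-14d and WT-CFC follow in that order. A minimum of 1000 UMIs gave 43.9% and 2.96% for microglia, 0.695% and 5.72% for astrocytes and 2.19% and 6.14% for oligodendrocytes. Classes with 2 markers more gave 29.1% and 1.23% for microglia, 0.320% and 1.17% for astrocytes and 1.60% and 2.19% for oligodendrocytes. Barcodes with no marker of another class gave 1.69% and 0.0605% for microglia, 0.0183% and 0.0303% for astrocytes and 0.0792% and 0.0833% for oligodendrocytes, too few for an expression value. Thinning to 500 UMIs gave 19.01% and 0.613% for microglia, 0.107% and 0.189% for astrocytes and 1.31% and 0.598% for oligodendrocytes. At most 5% mitochondrial UMIs gave CFC-14d 45.4% microglia and 2.32% oligodendrocytes. In place of CFC-14d, Random-14d held 42.6% microglia and 2.15% oligodendrocytes, and in place of WT-CFC, WT-naive held 2.56% astrocytes and 2.79% oligodendrocytes. Microglia stayed higher and astrocytes lower in cells under each of these settings, whereas oligodendrocytes turned with thinning. The markers of a class summed to 21296 and 7805 CPM in its own barcodes for oligodendrocytes, 16496 and 9956 CPM for microglia, and 8470 and 7287 CPM for astrocytes. These sums come from barcodes that had already passed the gate, so they do not give its sensitivity. Whether the gate was equally sensitive in cells and nuclei, and its part in the shares, was not tested. The astrocyte shares rested on 35 and 25 barcodes with thinning, and on 6 and 4 without a marker of another class.

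The share of genes past the fold moved as follows. With no minimum count, microglia had 8.25% higher and 68.4% lower in cells, astrocytes 27.5% lower, and oligodendrocytes 16.4% higher and 48.1% lower. With 5 counts added, microglia had 8.09% higher and 50.9% lower. At 4-fold the shares higher and lower were 8.79% and 10.7% in microglia, 7.51% and 5.10% in astrocytes, and 11.8% and 7.998% in oligodendrocytes. Thinning gave 27.1% lower in astrocytes, and a minimum of 500 counts 47.8% higher in oligodendrocytes. Of 84 list medians, 63 were at least 2-fold, and 4 of those turned in sign under an alternative: long neuronal genes in microglia (2.83, carried RNA subtracted), reactive astrocyte (-0.11) and interferon genes (-0.0711) in microglia with 5 counts added, and microglial transcription genes in astrocytes (0.66, no minimum). The cause was not tested, and in the subtraction counts that fell below 0 were set to 0. Medians under 2-fold were not followed for their sign, and some turned, such as those of sterol and splicing genes over whole libraries with the median set to 0. The depth of WT-CFC microglia, 430293 UMIs, limits low genes most.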

Other observations

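Outside the comparison, the nuclei library labelled KO-CFC stood apart from the other nuclei libraries in immune genes of 2 glial classes, given as values from 1 library. Interferon genes summed to 1238 CPM in its astrocytes, where WT-CFC and WT-naive had 111 and 100.4 CPM. In its oligodendrocytes they summed to 898 CPM, beside 83.1 in WT-CFC and 69.1 in WT-naive. Markers of other cells differed as well: in astrocytes microglia markers were at 273 CPM in KO-CFC, 111 in WT-CFC and 117.1 in WT-naive, and T and NK markers at 88.6, 0.864 and 0 CPM. In oligodendrocytes microglia markers were at 297, 62.7 and 72.03 CPM. Their part in the interferon values was not tested. Apoe in microglia was at 4328 CPM in KO-CFC and 594 in WT-naive. KO-CFC was also the shallowest library, with 38045642 UMIs, and it held 25 T or NK barcodes where the other nuclei libraries had 0.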
